A study of Mus musculus with 5 samples.

Results

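Kap encodes kidney androgen-regulated protein, a small protein made by proximal tubule cells of the mouse kidney, and it is described here as 1 gene of the 16934 listed in the tables. Its row was read in every library and set against the cell classes, the segments of the proximal tubule, the sparsest barcodes and the other genes. Tubule cells of wild-type mice of the strain labelled C56BL/6N had been freed by digestion at low temperature and captured by Drop-seq, a droplet method that tags each captured RNA molecule with a unique molecular identifier (UMI). Of the 5 libraries, 2 came from whole kidney and 1 each from dissected pieces of the cortex and of the outer and the inner medulla. The labels used here give neither the age nor the sex of the animals, nor how many were used, and all groups share the same genotype with no treatment named.

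The proximal tubule reabsorbs most of the filtered glucose, amino acids, phosphate and protein, and is divided into the segments S1, S2 and S3 from the glomerulus downwards. S1 and most of S2 lie in the cortex, and S3 runs down into the outer stripe of the outer medulla. Kap is a classical androgen-responsive gene of this epithelium, and its RNA is long known as one of the most abundant of the mouse kidney. Many genes for steroid, drug and fatty acid handling in the mouse proximal tubule differ between the sexes.

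The DNA just before a start of Kap transcription is shown beside the levels of its transcript. RefSeq (GRCm38.p6) places the gene on the minus strand of chromosome 6, and the 30 bases at chr6:133853678-133853707, printed 5′ to 3′ on the gene's strand, hold a match to the TATA box, in capitals.
Kap: tacaggatgTATAAAagcccaggaggactc
The match to TATAAA starts 31 bases before the start of transcription that the RefSeq promoter table uses, in a window of 300 bases that runs from 250 bases before the start to 50 after it. TATAAA, on either strand, occurs in 13.6% of the 32851 RefSeq promoter windows of the same length. The androgen response element half-site AGAACA, the full element and the HNF1 half-site GTTAAT were searched as well and had 0 matches in the Kap window. AGAACA occurs in 19.0% and GTTAAT in 7.10% of the promoter windows, and the full element in 3 of them. GENCODE, on the same build, annotates the gene at chr6:133849851-133853762, so its longest transcript starts further upstream and the bases shown lie inside that gene span.

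Depth and quality set the frame for these values. Cells were the barcodes with at least 200 detected genes, and there were 3070 of them in the cortex, 2422 in the outer medulla, 2409 and 3304 in whole kidney libraries 1 and 2, and 894 in the inner medulla, with a median of 440 to 517 UMIs each. The libraries held 869732 to 4169677 UMIs in all. Only 4 cell barcodes occurred in more than 1 library. Levels are given in counts-per-million (CPM) over all UMIs of a class in a library, on a scale where 1 molecule counts once whatever the length of its gene. With 1 library per region no difference can be tested, so each sum has an exact 95% Poisson interval and each ratio an exact conditional one. These cover counting error alone, and the difference between both whole kidney libraries is set beside each regional difference as the spread between libraries of one kind.

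Kap had rank 1, 2 or 3 by UMIs among all genes of every library. Over all barcodes it took 3.54% of UMIs in the cortex (125053 UMIs), 4.64% in the outer medulla (126085), 3.77% (109789) and 4.37% (182341) in whole kidney libraries 1 and 2, and 0.900% in the inner medulla (7828). Nothing exceeded it in the outer medulla and in whole kidney 2, where the second gene was Gpx3, the secreted glutathione peroxidase of the proximal tubule. Gpx3 stood above Kap in the cortex and in whole kidney 1. In the inner medulla only Aqp2, the vasopressin-regulated water channel of the collecting duct, with 8673 UMIs, and the nuclear RNA Malat1, with 8112, had more. A Kap UMI was found in 78.6% of cortex cells, 75.9% of outer medulla cells, 87.8% and 86.9% of the cells of whole kidney libraries 1 and 2, and 20.6% of inner medulla cells. One cell of whole kidney 2 held 3631 Kap UMIs, the highest number in any cell.

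Transcripts of the sex chromosomes bear on an androgen-regulated gene and were read in the same tables. Xist, the RNA of the inactive X chromosome, had 1 UMI in the outer medulla and 0 in the other libraries. The Y-linked Ddx3y had 52 UMIs in the inner medulla and 128 to 177 in the other 4 libraries, and Eif2s3y, Kdm5d and Uty, also Y-linked, were present in all 5. Of 4 kidney genes known to be higher in females, Slc7a12, Prlr and Cyp4a14 did not reach 20 CPM in proximal tubule-like cells of any library. Akr1c18 reached it only in the inner medulla, at 112 CPM in 89 cells. That value rests on very few UMIs, since those cells held 53635 UMIs of all genes together.

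Nearly all Kap RNA of the cells lay in the proximal tubule. Cells were clustered without Kap and named by marker genes, and proximal tubule-like cells, which carry markers such as the phosphate transporter Slc34a1 and the endocytic receptor Lrp2, held 92.6% of the cells' Kap UMIs in the cortex, 91.1% in the outer medulla, 96.1% and 95.9% in whole kidney libraries 1 and 2, and 91.7% in the inner medulla. Their share of the cells was 73.4% in the cortex and 9.96% in the inner medulla, where they numbered 89. The level in proximal tubule-like cells was 44661 CPM in the cortex, 66813 in the outer medulla, 47668 and 53777 in whole kidney libraries 1 and 2, and 75044 in the inner medulla. The outer medulla stood above the cortex by a factor of 1.496 (95% interval 1.48 to 1.51), against 1.13 (95% interval 1.12 to 1.14) for whole kidney 2 over whole kidney 1. A median over cells in place of the sum turned the second ratio round (log2 -0.40) and raised the first (log2 1.07 in place of 0.58). The outer medulla piece also held 657 S1-like cells (named below), 27.1% of its cells, beside 36.2% in the cortex. S1 lies in the cortex, and how these cells came into the outer medulla piece was not tested. Among proximal tubule-like cells alone, S1-like cells were 657 of 1531 in the outer medulla and 1111 of 2252 in the cortex. In whole kidney libraries 1 and 2 they were 813 of 1822 and 1338 of 2633. Regional ratios therefore compare dissected pieces whose mix of segments differed, as it did between the whole kidney libraries. How far the mix bears on the ratios was not tested.

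S1-like cells differed from the later segments far more than the libraries differed from each other. Proximal tubule-like cells were clustered again without Kap and named by segment markers. S1-like cells, with the glucose transporter Slc5a2 and the lactate transporter Slc5a12, held 9063 CPM in the cortex, 10057 in the outer medulla, and 8267 and 9421 in whole kidney libraries 1 and 2. S2-like cells, a small cluster of 35 to 80 cells per library marked by Slc22a8, Mdk and Ttr, held 38363 CPM in the cortex, 64916 in the outer medulla, and 40671 and 45548 in whole kidney libraries 1 and 2. That cluster had 242 cells in all, but 556 without the top 5% of doublet scores and 1048, at 57525 CPM, with no doublet removal. With cells of at least 300 genes, clusters of 559 and 439 cells took the name, at 62362 and 55439 CPM. Levels per library were not taken with no doublet removal or at 300 genes. The other alternatives gave S2-like levels of 38830 to 53942 CPM in the cortex and 53333 to 74178 in the outer medulla. In whole kidney libraries 1 and 2 they gave 31026 to 50448 and 36567 to 63381 CPM. S3-like cells, with the amino acid transporter Slc7a13 and the deacylase Acy3, held 79968 CPM in the cortex, 109761 in the outer medulla, 78143 and 95443 in whole kidney libraries 1 and 2, and 106345 in the inner medulla, where it rests on 38 cells. The order S1-like, S2-like, S3-like was the same in all 4 libraries with enough cells of each (30 or more), and the highest S1-like level lay below the lowest S2-like one and the highest S2-like level below the lowest S3-like one.

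S3-like cells exceeded S1-like cells by a factor of 8.82 (95% interval 8.62 to 9.03) in the cortex, 10.91 (95% interval 10.60 to 11.24) in the outer medulla, and 9.45 (95% interval 9.18 to 9.73) and 10.13 (95% interval 9.93 to 10.34) in whole kidney libraries 1 and 2. S2-like cells exceeded S1-like cells 4.23 to 6.45 times, and S3-like exceeded S2-like cells 1.69 to 2.10 times. The latter step was near in size to a difference between libraries, since S2-like cells of the outer medulla exceeded those of the cortex 1.69 times. The direction held in every alternative, but the S3-like over S1-like fold did not keep its size. With cells of at least 500 genes, clustered and named anew, it was 31.8 to 38.8. The S1-like cells were then a cluster of 623 cells at 2601 CPM. Another cluster of 531 cells at 16893 CPM scored highest for S1 but was left without a name, so it is not in that fold. After subtraction of the profile of the sparsest barcodes the fold was 23.6 to 79.5. Its values of 53.2 and 79.5, in whole kidney libraries 1 and 2, rest on only 1713 and 1435 CPM left in S1-like cells. The sparsest barcodes are also no uniform pool, as described below. With medians over cells, a comparison added after the data were seen, the fold was 22.7 to 62.5. In the main clusters, cells with 500 genes or more showed no rise of the first size. Their S1-like cells held 10411 CPM in the cortex, 11703 in the outer medulla, and 7456 and 9844 in whole kidney libraries 1 and 2. Their S3-like cells held 79860, 111308, 78691 and 95930 CPM in the same order. By UMIs summed over the 4 libraries Kap had rank 1 among all genes in S3-like cells and rank 4 in S1-like cells.

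**Figure D1:**
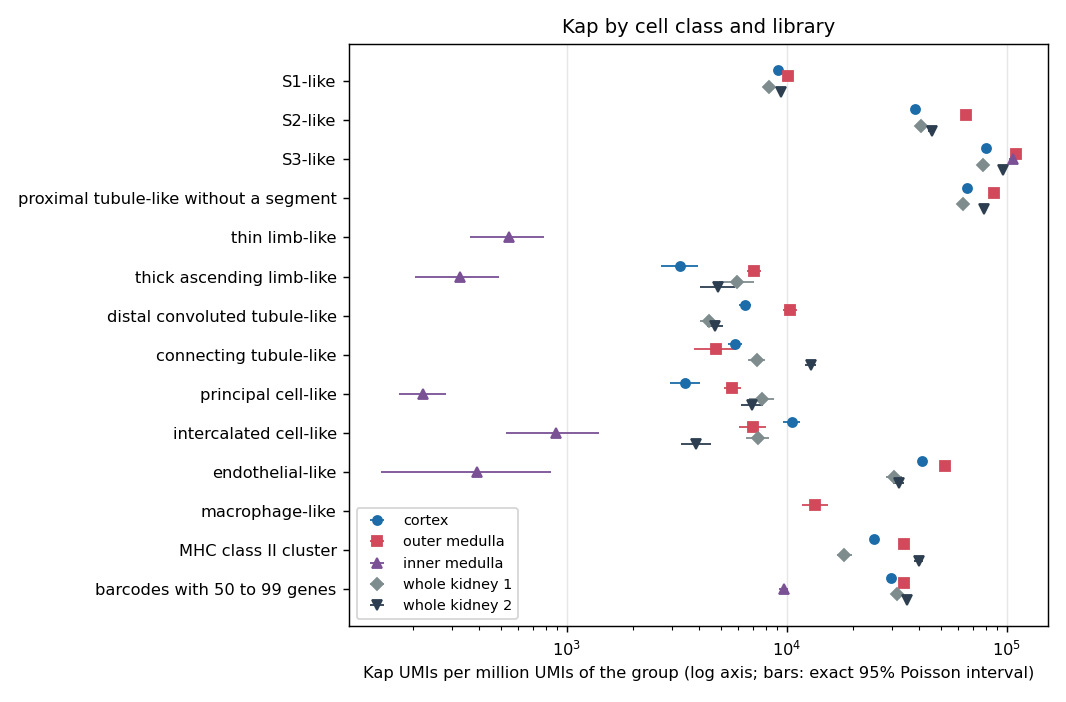
Kap level in CPM (log axis) in each cell class with at least 30 cells, with 1 symbol per library and exact 95% Poisson intervals as bars; the bottom line shows barcodes with 50 to 99 genes. In each library with all 3 segments, S3-like cells lie highest among the segments and S1-like cells lowest, and the inner medulla classes outside the proximal tubule lie between 222 and 888 CPM.

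S3-like cells carried Kap without exception in 4 of the 5 libraries. A Kap UMI was in every S3-like cell except in whole kidney library 2, where 99.9% had one. With each cell thinned to 300 UMIs, the number of Kap UMIs in the median S3-like cell was 24 in the cortex, 31 in the outer medulla, 22 and 27 in whole kidney libraries 1 and 2, and 31 in the inner medulla. The middle 50% of S3-like cells lay between 17 and 30 UMIs in the cortex and between 23 and 39 in the outer medulla, so the cells of these libraries overlapped widely. Their coefficient of variation was 0.393 to 0.41 in the 4 larger sets, and the variance was 4.05 to 5.57 times what binomial sampling of 1 common share would give.

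S1-like cells were unlike that: most had little Kap and a few had much. At 300 UMIs the Kap count of the median S1-like cell was 1 in the cortex, 0 in the outer medulla, and 1 and 1 in whole kidney libraries 1 and 2. The 90th percentile of S1-like cells was 8 in the cortex, 9 in the outer medulla, and 8 and 7 in whole kidney libraries 1 and 2. The unthinned Kap share of the median S1-like cell was 0.216% in the cortex, 0.163% in the outer medulla, and 0.323% and 0.312% in whole kidney libraries 1 and 2, against 0.827 to 1.01% for their summed UMIs. Kap made up 5% of UMIs or more in 32 of 1111 S1-like cells of the cortex, 33 of 657 of the outer medulla, and 23 of 813 and 51 of 1338 of whole kidney libraries 1 and 2. The share of the Kap UMIs of their class that these few cells held was 25.1% in the cortex, 46.0% in the outer medulla, and 19.7% and 38.8% in whole kidney libraries 1 and 2. In the inner medulla there were 23 S1-like cells, too few for a level.

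**Figure D2:**
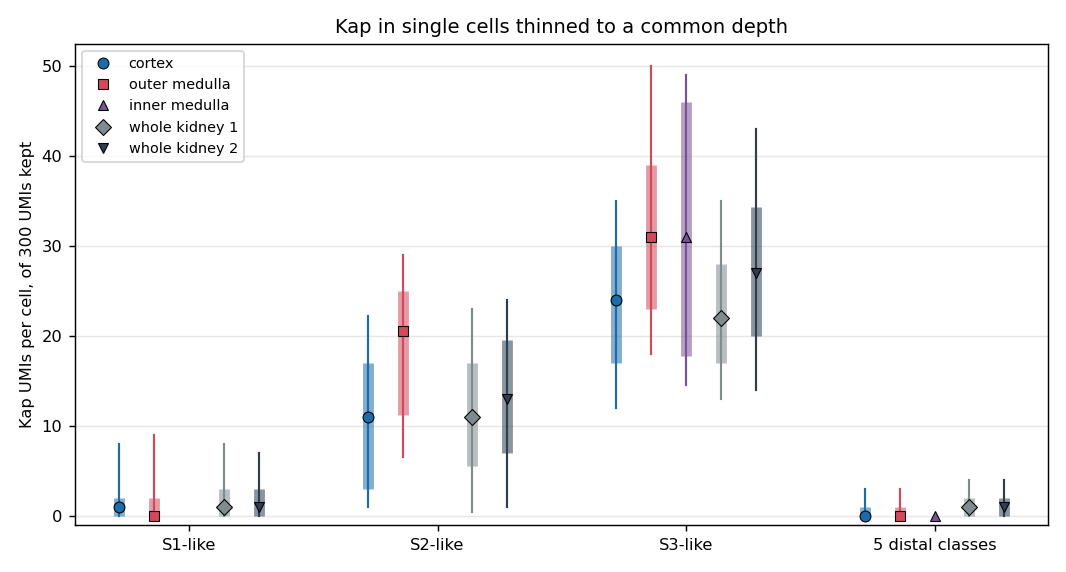
Kap UMIs per cell among 300 UMIs kept from each cell, by segment and library, with the pooled distal classes at the right; symbols are medians, thick bars the 25th to 75th and thin bars the 10th to 90th percentile of cells. S3-like medians lie between 22 and 31 UMIs, S1-like medians at 0 or 1, as do the medians of the distal classes.

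The typical S1-like cell was hardly set apart in Kap from cells of the later tubule. Thick ascending limb-like, distal convoluted tubule-like, connecting tubule-like, principal cell-like and intercalated cell-like cells, pooled as 5 distal classes, had a median Kap share of 0.145% in the cortex, 0.178% in the outer medulla, and 0.297% and 0.304% in whole kidney libraries 1 and 2, at median depths of 386 to 482 UMIs against 506 to 536 in S1-like cells. With each cell thinned to 200 UMIs, the share of S1-like cells with a Kap UMI was 46.0% in the cortex, 41.9% in the outer medulla, and 55.5% and 54.3% in whole kidney libraries 1 and 2. The same share of distal cells was 35.1% in the cortex, 37.2% in the outer medulla, and 50.4% and 50.2% in whole kidney libraries 1 and 2. The S1-like share was thus the higher one in each of these libraries. The exact intervals of both shares were apart in the cortex (43.0 to 49.0% against 31.3 to 39.1%) and overlapped in the other 3 libraries. They cover counting error alone, and their overlap does not show that the shares are equal. The upper tail did differ in size: the 90th percentile of the Kap share was 2.49 to 3.33% in S1-like cells and 0.756 to 1.26% in the distal classes of these libraries.

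Beyond the named segments, 2 sub-clusters of proximal tubule-like cells stood out. A set of 87 cells over the 5 libraries, led by the S3 markers Cyp7b1, a steroid hydroxylase, and Serpina1f, and counted among the S3-like cells, had the highest Kap of any sub-cluster: 142342 CPM in 39 outer medulla cells and 132670 CPM in 19 inner medulla cells, with 119652 to 155250 CPM in the 4 to 14 cells of each other library. Only the outer medulla had 30 or more of these cells, and the other values rest on very few. The median of its outer medulla cells was 39 Kap UMIs of 300. A larger sub-cluster of shallow cells (median 345 to 379 UMIs in the 4 larger libraries), which could not be named by segment, held 66034 CPM in the cortex, 89959 in the outer medulla, and 64938 and 79816 in whole kidney libraries 1 and 2, between the S2-like and the S3-like levels of the same library.

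Kap and Gpx3 ran in opposite directions along the tubule. Gpx3 went from 71160 to 78423 CPM in S1-like cells through 39216 to 56592 in S2-like to 22119 to 30719 in S3-like cells of the 4 libraries, with no overlap between the segments. Per library the ratio of Kap to Gpx3 UMIs was 0.105 to 0.132 in S1-like and 2.60 to 4.33 in S3-like cells.

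Within S3-like cells Kap was higher in the outer medulla than in the cortex. The ratio was 1.37 (95% interval 1.36 to 1.39), against 1.22 (95% interval 1.21 to 1.23) between both whole kidney libraries. The interval of the first ratio lay above 1, as it did for 20.2% of the 352 genes with at least 500 CPM, and Kap was exceeded there by 6 genes, named after their values were seen: Ttr, Napsa, B2m, Mocs2, Fam213a and Hao2. Between the whole kidney libraries the interval lay above 1 for 31.5% of 355 genes, and 25 genes exceeded Kap. Ttr, the carrier of thyroid hormone and retinol-binding protein, stood in S3-like cells at 941 CPM in the cortex, 3945 in the outer medulla, and 1742 and 1523 in whole kidney libraries 1 and 2.

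The outer medulla exceeded the cortex at each depth of S3-like cells. With 200 or more but under 300 genes Kap was at 77486 CPM in the cortex and 97687 CPM in the outer medulla, with 300 or more but under 500 genes at 81583 and 104606 CPM, and with 500 genes or more at 79860 and 111308 CPM. Whole kidney 2 exceeded whole kidney 1 in the same 3 ranges, by less: 74939 against 84069 CPM in the lowest and 77011 against 96937 CPM in the middle and 78691 against 95930 CPM in the highest. In the middle range both differences were close in size. In S1-like cells the regional ratio, 1.11 (95% interval 1.07 to 1.15), stood beside 1.14 (95% interval 1.10 to 1.18) between the whole kidney libraries. Which of both is larger depended on the setting. On the log2 scale they were 0.15 and 0.19, but 0.35 and -0.064 with Kap kept in the clustering, 0.27 and -0.063 without the 5% highest doublet scores, and 0.44 and 0.53 with cells of at least 500 genes. Intervals above 1 were found for 20.9% of 345 genes in the first of these and for 39.8% of 352 genes in the second. The S2-like ratios were 1.69 (95% interval 1.60 to 1.79) and 1.12 (95% interval 1.05 to 1.19), with 49 S2-like cells in the outer medulla and 35 in whole kidney 1. On the log2 scale these were 0.76 and 0.16, but 0.35 and 0.70 with Kap kept in the clustering, which turns their order, and 0.46 and 0.33 with segments from marker scores.

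Kap was present in the sparsest barcodes of all libraries. Barcodes with 50 to 99 genes, which hold too little RNA to count as cells and stand here for free RNA and cell fragments, had 29724 CPM in the cortex, 33988 in the outer medulla, 31752 and 35203 in whole kidney libraries 1 and 2, and 9643 in the inner medulla. In the 4 libraries with enough S1-like cells, those levels lie between the S1-like and the S3-like level of the same library. The share of these barcodes with a Kap UMI was 62.6% in the cortex, 62.5% in the outer medulla, 77.0% and 74.7% in whole kidney libraries 1 and 2, and 16.5% in the inner medulla. If every such barcode held Kap at the common share, the share would have been 90.2% in the cortex, 92.8% in the outer medulla, 90.8% and 93.1% in whole kidney libraries 1 and 2, and 53.0% in the inner medulla.

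So Kap was not spread evenly over the sparse barcodes. Of their Kap UMIs, the 10% of barcodes with the highest Kap counts held 44.8% in the cortex, 47.7% in the outer medulla, 35.3% and 40.4% in whole kidney libraries 1 and 2, and 91.5% in the inner medulla. The variance of Kap across them was 2.89 times the binomial one in whole kidney 1, where it was lowest, and 9.98 times in the inner medulla, where it was highest. These barcodes therefore cannot be read as samples of 1 uniform pool of free RNA, and fragments of Kap-rich cells among them were not separated from it.

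The distal classes held less Kap than the sparse barcodes. Pooled, they had 6189 CPM in the cortex, 7224 in the outer medulla, 6136 and 7265 in whole kidney libraries 1 and 2, and 304 in the inner medulla. Relative to barcodes with 50 to 99 genes this was 20.8% in the cortex, 21.3% in the outer medulla, 19.3% and 20.6% in whole kidney libraries 1 and 2, and 3.15% in the inner medulla. These shares moved with the setting: in the cortex and the outer medulla they were 43.1% and 53.6% with classes from marker scores, 38.7% and 40.8% with cells of at least 500 genes, and 4.88% and 5.24% by medians over cells. RNA of the 22 proximal tubule marker genes, which these cells should lack, relative to the same barcodes stood at 19.9% in the cortex, 19.5% in the outer medulla, 21.8% and 23.6% in whole kidney libraries 1 and 2, and 5.37% in the inner medulla. Kap and the proximal markers thus stood at similar fractions in 4 libraries, and Kap at a lower one in the inner medulla. The pooled distal level lay below that of the sparse barcodes in every library, although single distal cells had a larger Kap share. S1-like cells lay below it too, at 30.5% in the cortex, 29.6% in the outer medulla, and 26.0% and 26.8% in whole kidney libraries 1 and 2. Whether distal cells express Kap was not tested.

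The ratio of Kap to proximal marker UMIs sets the distal cells beside the segments. In the distal classes it was 0.907 in the cortex, 1.39 in the outer medulla, 0.821 and 0.841 in whole kidney libraries 1 and 2, and 0.895 in the inner medulla. In the sparse barcodes it was 0.867 in the cortex, 1.27 in the outer medulla, 0.926 and 0.964 in whole kidney libraries 1 and 2, and 1.53 in the inner medulla. S1-like cells had 0.184 to 0.247 and S3-like cells 1.93 to 2.96, so the distal ratio lay near that of the sparse barcodes, and between the segments, in the 4 libraries with S1-like values. The inner medulla had a lower ratio in distal cells than in sparse barcodes, on 119 Kap UMIs in 628 cells.

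**Figure D3:**
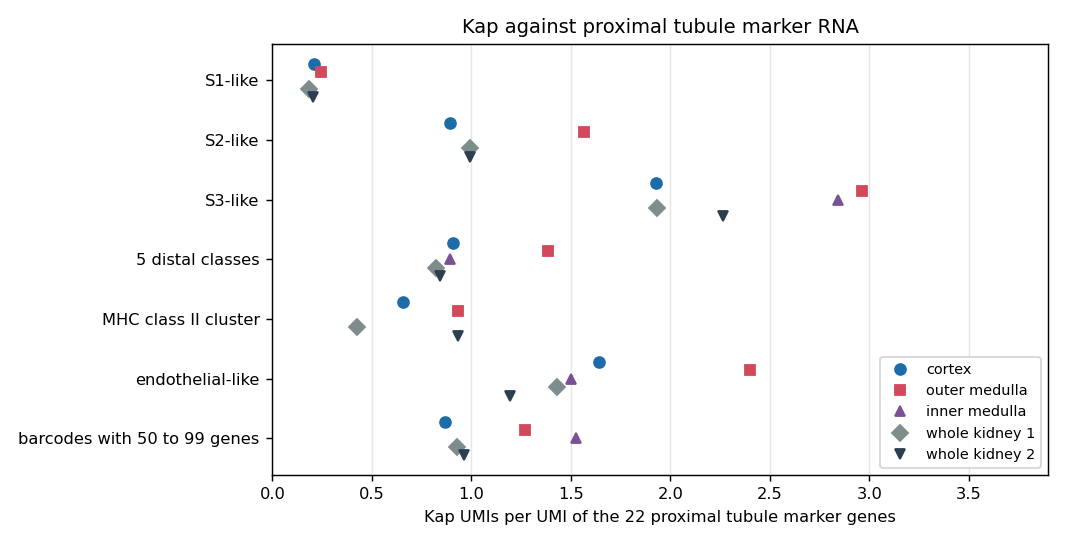
Kap UMIs per UMI of the 22 proximal tubule marker genes in segments, pooled distal classes, 2 mixed clusters and barcodes with 50 to 99 genes, with 1 symbol per library. The distal classes lie between 0.82 and 1.39, above all S1-like values (at most 0.25) and below all S3-like values (at least 1.93).

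Within the distal classes a few cells carried much of the Kap. Their median Kap share of 0.15 to 0.30% outside the inner medulla compares with 0.614 to 0.727% for the sums, and 10, 18, 7 and 12 cells of the cortex, the outer medulla and whole kidney libraries 1 and 2 had 5% Kap or more. The share of the distal Kap UMIs in those cells was 47.6% in the cortex, 52.7% in the outer medulla, and 21.1% and 38.7% in whole kidney libraries 1 and 2. When the top 5% of each library by doublet score were left out, the pooled level went from 20.8 to 7.58% of that in sparse barcodes in the cortex and from 21.3 to 10.0% in the outer medulla, but only from 19.3 to 15.8% and from 20.6 to 14.97% in whole kidney libraries 1 and 2. By class, the level outside the inner medulla ran from 3259 CPM in thick ascending limb-like cells of the cortex to 12807 CPM in connecting tubule-like cells of whole kidney 2. No class was highest in all 4 libraries.

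In the inner medulla library most cells carried no Kap, although 9.96% of them were proximal tubule-like. Principal cell-like cells, the vasopressin-responsive cells of the collecting duct, had 222 CPM (67 UMIs in 475 cells), thick ascending limb-like cells 325, endothelial-like cells 390, thin limb-like cells 546 and intercalated cell-like cells 888 CPM. Each of these lay below 10% of the level in the sparse barcodes of the same library. The 89 proximal tubule-like cells, at 75044 CPM, held 4025 of the 4390 Kap UMIs in cells. The proximal tubule does not normally reach the inner medulla, and how these cells came into the dissected piece was not tested.

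Outside the named proximal and distal classes, 2 mixed clusters had high sums and low medians. Endothelial-like cells, whose cluster also held the pericyte and smooth muscle genes Rgs5, Acta2 and Myl9, had 41191 CPM in the cortex, 52107 in the outer medulla, and 30616 and 32132 in whole kidney libraries 1 and 2, but the median share per cell was 0.319% in the cortex, 0.417% in the outer medulla, and 0.546% and 0.548% in whole kidney libraries 1 and 2. A cluster led by the MHC class II genes H2-Aa and Cd74 with too few macrophage markers to be named had 24891 CPM in the cortex, 34142 in the outer medulla, and 18229 and 39610 in whole kidney libraries 1 and 2 and a median share of 0.325 to 0.539%. Its proximal marker RNA stood at 110 to 137% of that in sparse barcodes, beside proximal tubule-like cells, where it was 120 to 144% outside the inner medulla. In the macrophage-like cells of the outer medulla, the only library with 30 of them, Kap was at 13470 CPM with a median of 0.4% in 37 cells. Cells with 5% Kap or more held 82.6 to 88.3% of the Kap UMIs of the endothelial-like cells and 59.8 to 89.9% of those of the MHC class II cluster.

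Across proximal tubule-like cells Kap co-varied with genes of the later segments. Correlations were taken within each of 4 libraries, over 1951 cells of the cortex, 1314 of the outer medulla, and 1517 and 2281 of whole kidney libraries 1 and 2, each cell thinned to 300 UMIs other than Kap. Cells of a library share its depth and its free RNA, so these values are a description without a test. Of 423 genes with a UMI in at least 10% of cells of each library, 162 (38.3%) had a positive correlation in all 4 and 90 (21.3%) a negative one, around a median of 0.01. With Kap kept in the UMI total that balance turned round, to 108 positive and 134 negative of 393 genes. A mean of 0.2 or more was reached by 20 genes and -0.2 or less by 12.

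The 12 most positive genes are mostly enzymes and transporters. Cyp2e1, a cytochrome P450 that oxidises ethanol and ketones, led with r of 0.44, 0.47, 0.35 and 0.42 in the cortex, the outer medulla and whole kidney libraries 1 and 2. Cndp2, a dipeptidase of the cytosol, followed with 0.35, 0.35, 0.47 and 0.48, and Slc27a2, a fatty acid transporter and very long-chain acyl-CoA synthetase, with 0.32, 0.44, 0.37 and 0.36. The others, with means of 0.36 down to 0.29, were Acy3, the haem protein Cyb5a, the phospholipid enzyme Chpt1, Cyp4b1, the aspartic protease Napsa, the methyltransferase Inmt, the S3 transporter Slc7a13, the CoA hydrolase Nudt19 and the membrane protein Tmigd1.

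The 8 most negative genes include markers of the early tubule. Gpx3 was lowest, with r of -0.57, -0.56, -0.57 and -0.60 in the same order of libraries, then Gatm, the first enzyme of creatine synthesis, with -0.45, -0.52, -0.52 and -0.46. Spp2, a secreted phosphoprotein, had -0.46, -0.53, -0.47 and -0.38. Spp1 (osteopontin), the glucose transporter Slc5a2, the lactate transporter Slc5a12, the carbonic anhydrase Car2 and the glutathione transferase Gsta2 followed, with means of -0.36 to -0.24.

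Within a single segment fewer genes reached a mean correlation of 0.2 or -0.2. Within S3-like cells the means of the 12 positive genes lay between -0.09 and 0.17, with Napsa, Tmigd1 (0.17), Chpt1 (0.15) and Slc7a13 (0.14) highest, and none of the 423 genes reached 0.2, while Gatm (-0.23) was the 1 gene at -0.2 or less. Cyp2e1, first over all proximal tubule-like cells, was negative within S3-like cells in all 4 libraries. Within S1-like cells 1 gene reached a mean of 0.2, which was Cyp2e1 (0.21). Within S2-like cells 8 genes were at -0.2 or less and 1 at 0.2 or more, the ferritin heavy chain Fth1 (0.23). Gpx3 stayed negative in each segment of each library, with means of -0.26 in S1-like, -0.32 in S2-like and -0.16 in S3-like cells. At this depth weak correlations in sparse counts are no finding.

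**Figure D4:**
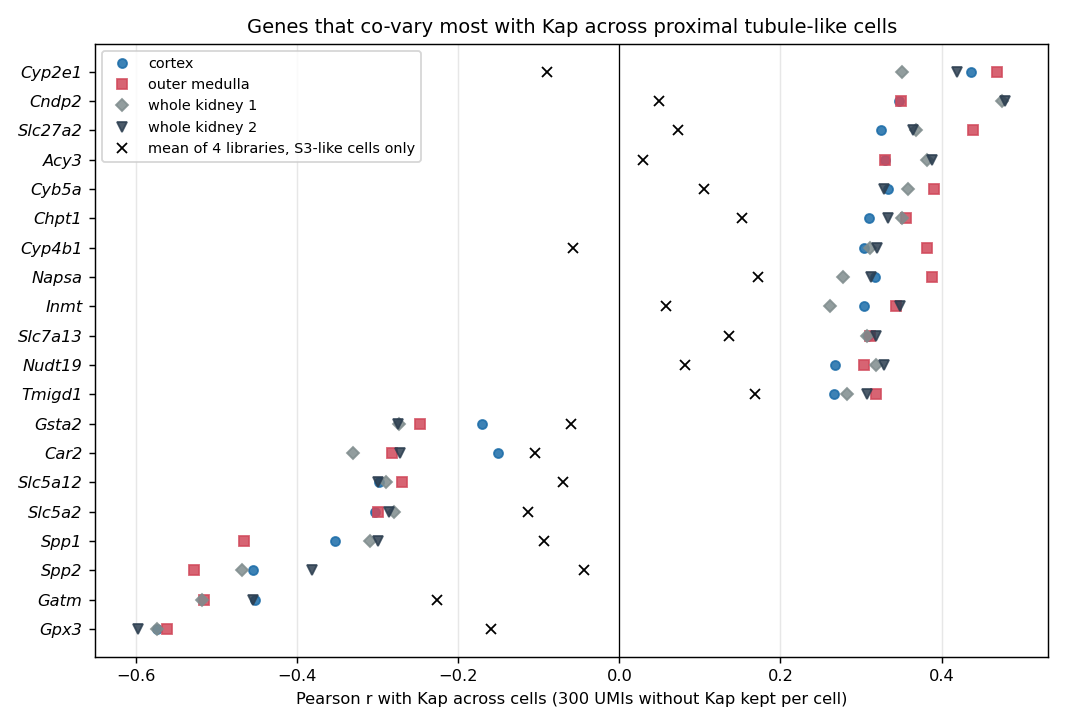
Pearson correlation with Kap across proximal tubule-like cells for the 12 genes with the highest and the 8 with the lowest mean, with 1 symbol per library, and the mean within S3-like cells as a cross. The same sign in the 4 libraries was a condition for the choice of these 20 genes. The crosses lie closer to 0 for each gene.

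Over cell classes rather than single cells, the genes with the profile most like that of Kap included Slc27a2, Cyp2e1, Acy3 and Inmt, which are also among the 12 most positive over single cells. Among 1176 genes that reached 500 CPM in at least 1 of 51 groups of class and library, the log2 level of Slc27a2 correlated best with that of Kap (r = 0.95), followed by Cyp2e1 (0.94), the urate transporter Slc22a12 (0.94), Acy3 (0.94), Ttc36 (0.93), Inmt (0.93), AI314278 (0.93) and Guca2b (uroguanylin, 0.92). The 51 groups come from 5 libraries and share them, and most of the spread among groups is that between proximal and other classes.

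Genes known to be raised by androgens in the mouse kidney lay on the same side as Kap. Of 16 in the list, 15 reached 20 CPM, and all 15 were higher in S3-like than in S1-like cells summed over the 4 libraries, with a median log2 ratio of 1.72 and 11 at 2-fold or more. Of the 5620 genes at that level in either segment, 2292 (40.8%) were higher in S3-like cells, with a median log2 ratio of -0.10, and 3.31% were at 2-fold or more. Some of these genes lead the S3-like clusters (Acsm3, Slco1a1, Cyp7b1) or mark S2 and S3 in the naming of segments, so their direction is partly fixed by the clustering and no test was made. Kap itself had a log2 ratio of 3.29, and 8 genes had a larger one.

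The members of that list differ in level and steepness. Slco1a1, an organic anion carrier, had 10.2 to 36.3 CPM in S1-like and 433 to 857 CPM in S3-like cells, and the acyl-CoA synthetase Acsm3 15.3 to 79.2 and 555 to 1283 CPM. Odc1, the ornithine decarboxylase that is a classical androgen target in this organ, had 313 to 371 and 578 to 1285 CPM. Timd2 and Acsm2 were nearly level, with log2 ratios of 0.02 and 0.16, and Gusb, beta-glucuronidase, another classical target, had 0.83 at 48.4 to 85.7 CPM in S3-like cells. The remaining members, Cyp7b1, Cyp2e1, Cyp2d9, Cyp4b1, Cyp2j13, Cyp4a12a, Slc22a6, Nudt19 and Adh1, had log2 ratios of 0.89 to 3.08. Among proximal tubule-like cells, 6 of the 16 were common enough for a correlation with Kap, and 5 of these were positive in all 4 libraries, beside 38.3% of all genes tested.

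Hormone receptors were measured in the same segments. The glucocorticoid receptor Nr3c1 had 104 to 171 CPM in S1-like and 77.4 to 92.5 CPM in S3-like cells. Ghr, the growth hormone receptor, had 293 to 308 and 1042 to 1272 CPM. Of the 13 receptors and partners 9 reached 20 CPM, and 3 of them (Ghr, the chaperone Fkbp5 and the thyroid hormone receptor Thrb) were higher in S3-like cells, with a median log2 ratio of -0.18 for the 9. That share, 33.3%, is near the 40.8% of all measured genes, so it is no result about the receptors. The oestrogen receptor Esr1 had at most 6 UMIs in the proximal tubule-like cells of any library.

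Other lists of proximal genes were read in the same way. Among the transcription factors Cebpb was higher in S3-like cells, and Maf had the opposite course, with 980 to 1316 CPM in S1-like and 227 to 382 CPM in S3-like cells, while Hnf4a had 238 to 287 and 175 to 213 CPM. Of 15 brush border and uptake genes 5 (33.3%, again near the 40.8% of all measured genes) were higher in S3-like cells, among them the peptidases Ggt1 and Ace, and 10 lower, among them Lrp2 (809 to 1059 against 412 to 721 CPM), the megalin that takes up filtered protein. Of 12 measured secreted or luminal proteins 3 (25%) were higher in S3-like cells: Napsa (60.2 to 124 against 1184 to 2173 CPM), Guca2b and, barely, Ttr (log2 0.08). Spp2 and Apoe were lower, with log2 ratios of -3.89 and -3.90.

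**Figure D5:**
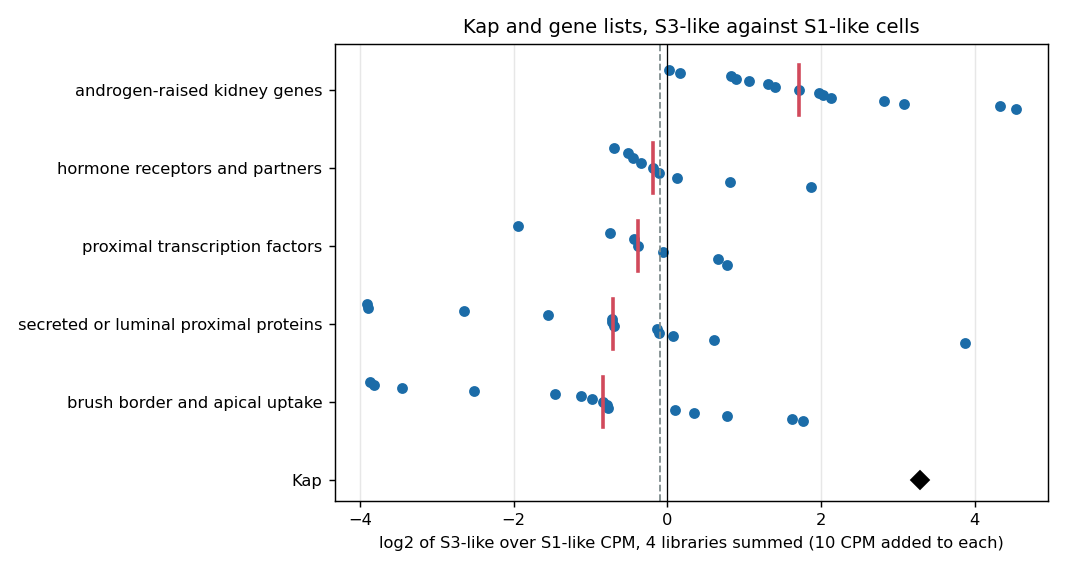
Log2 ratio of S3-like over S1-like level (4 libraries summed, 10 CPM added to each) for the measured genes of 5 lists, 1 point per gene, with each list's median in red, all genes' median as a dashed line and Kap as a diamond. The androgen-raised genes all lie above 0, with a median of 1.72, and the other 4 medians lie between -0.84 and -0.18.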

How the data were processed

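Mouse kidney cells were counted by Drop-seq in 5 libraries, and the deposited tables hold raw UMI counts per gene and barcode as the authors made them. Per the submitters' processing notes the genome build was mm9 and Seurat 2.3.1 was used, with no role given, and the sources used here name no aligner. The tables list barcodes with at least 50 detected genes and no mitochondrial symbols.

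Barcodes with at least 200 genes were taken as cells. Scrublet (in scanpy 1.11.5, expected doublets 5%) marked 22 of 12121 (0.182%) as doublets, which were removed, and a caller that marks so few is taken not to have worked, so doublets may remain. Cells were clustered without Kap (Leiden, leidenalg 0.10.2, resolution 1, 2000 variable genes, 30 components, 15 neighbours) and named by listed markers, and proximal tubule-like cells were clustered again. Names were rebuilt here, so classes may differ from those of the study. A cluster of MHC class II genes was split from macrophage-like cells, distal-led sub-clusters were left without a name, and 5 distal classes were pooled, all after the data were seen. Groups under 30 cells are left out, except 1 proximal sub-cluster, given with its cell numbers. Intervals are 95% (Poisson, conditional binomial, Clopper-Pearson). edgeR 4.0.16 in R 4.3.3 was used only for TMM factors, and numpy 2.4.6, scipy 1.17.1, pandas 2.3.3 and matplotlib 3.10.9 for the rest. The steps were tested on simulated data.

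Named genes are Kap, the listed genes that reach 20 CPM, the 12 most and 8 least correlated, the 8 of most similar profile and those above Kap in a library. Some listed genes are not reported here. Kap and the lists were chosen with earlier results of these data known. Alternatives concerned the gene minimum, classes by marker score, Kap in the clustering, doublets, scaling, medians, subtraction of sparse barcodes, thinning and rank correlation. Where the cells or the clustering genes changed, clusters were made and named anew, so segment membership changed as well.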

Additional observations from a re-analysis of the deposited data

How the results depend on the processing

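Where a list of values follows, the order is cortex, outer medulla, whole kidney libraries 1 and 2 and, where given, inner medulla. Kap in proximal tubule-like cells was 50000.2, 77400, 53342, 60925 CPM with classes from marker scores and 26520, 55677, 37747, 28634, 60897 CPM as a median over cells. Subtraction of the sparse barcodes gave 74765 CPM in the outer medulla, and 52109 and 59531 CPM in the whole kidney libraries. In the inner medulla it was 65540 CPM at 300 genes and 61121 CPM with TMM factors, and at 500 genes fewer than 30 such cells remained. The log2 ratio of outer medulla over cortex in these cells, 0.58, was 1.07 by medians, and the ratio of whole kidney 2 over 1 turned to -0.40. That ratio in S1-like cells turned to -0.0641 with Kap kept in the clustering, -0.0629 without the 5% highest doublet scores, -0.24 with segments from marker scores and -0.25 after subtraction. The S3-like over S1-like fold was 38.8, 38.1, 37.3, 31.8 at 500 genes, 13.6, 15.03, 12.1, 15.2 with Kap kept in the clustering, 10.2, 11.8, 10.1, 12.7 without the highest doublet scores, 10.1, 13.3, 8.84, 12.7 by marker scores, 23.6, 30.1, 53.2, 79.5 after subtraction and 34.9, 62.5, 22.7, 28.6 by medians, which were added after the data were seen.

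Kap in the distal classes relative to sparse barcodes was 43.1%, 53.6%, 44.2%, 39.7%, 13.9% by marker scores, 7.58%, 10.00%, 15.8%, 14.97%, 2.82% without the highest doublet scores and 4.88%, 5.24%, 9.36%, 8.63%, 0% by medians, also added later. At 500 genes it was 38.7%, 40.8%, 24.6%, 1.97% in the cortex, the outer medulla, whole kidney 2 and the inner medulla. Sparse barcodes of at least 100 but under 150 genes gave 19.7% in the cortex and 18.4% in whole kidney 1, and those of 50 to 74 genes 3.85% in the inner medulla. All S3-like over S1-like folds stayed above 1. The cause of these shifts was not tested. Genes positive with Kap numbered 276 (of 695 tested) with 500 UMIs per cell and 84 within segments, and negative genes 33 within segments. The mean of the whole kidney libraries in proximal tubule-like cells, 50723 CPM, was 53777 without replicate 1 and 47668 without replicate 2. Among all alternative values for the main results, 68 stayed within the replicate spread or the 1.5-fold limit and 64 moved beyond it. For the further results, 86 stayed, 110 moved and 5 changed sign.

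No paired analysis was possible because the groups share only the replicate number 1, which names a single library in each, and only whole kidney has more than 1 library. Depth limits what S1-like and distal cells can show, since 1 UMI of 300 is already above the Kap share of their median cell in the 4 libraries with both.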
